A study of Mus musculus with 6 samples.

Results

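Integrin and laminin genes were examined in 6 mouse medulloblastomas, tumours of the cerebellum. The group was every gene whose single platform symbol named an integrin alpha chain, an integrin beta chain or a laminin alpha, beta or gamma chain. It held 35 of the 22180 genes tested, of which 25 encode integrins and 10 encode laminins. RNA of each tumour was hybridised to 1 Affymetrix whole-transcript array, and a level is given throughout as the authors' normalised log2 value (RMA). The 3 wild type tumours carried Math1Cre::SmoM2Fl/+ and the 3 knockout tumours Math1Cre::CrebbpFl/FlSmoM2Fl/+. Math1 (Atoh1) drives a tamoxifen-dependent Cre recombinase in granule neuron progenitors, SmoM2 is an active form of the Sonic hedgehog transducer Smoothened, and Crebbp encodes a histone acetyltransferase. All animals, controls included, received 1 mg tamoxifen at postnatal day 5, and those with clear tumour growth gave tissue at postnatal day 60. The tissue was whole tumour, so vessels, meninges, glia and immune cells contribute RNA, and these cells lie outside the Math1 lineage. The labels do not state separate litters, so p-values measure the spread between these samples only.

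Laminins are trimers of an alpha, a beta and a gamma chain that polymerise into basement membranes, the sheets under epithelia, around vessels and beneath the pia. Integrins are cell surface receptors made of an alpha and a beta chain. They bind laminin, collagen, fibronectin, tenascin or cell surface ligands and link them through talin and kindlin to the actin cytoskeleton. In the developing cerebellum granule neuron progenitors divide next to the pial basement membrane, and integrins with the beta1 chain receive laminin there. Several other integrins are restricted to leukocytes and platelets.

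The targeted gene gave a limited check of the labels. Its difference did not pass an adjusted p of 0.05, and in 9.43% of all genes all knockout arrays lay below all wild type arrays. Crebbp lay at 11.76 ± 0.05 in wild type against 11.26 ± 0.07 in knockout tumours (log2, SD, n = 3 each), with all knockout arrays below all wild type arrays (exact two-sided permutation p = 0.1, the smallest that 3 against 3 arrays allow; limma adjusted p = 0.0948). All 3 wild type arrays carried the male and all 3 knockout arrays the female pattern of sex-linked transcripts, so an effect of sex and one of genotype cannot be told apart in any comparison below. The 35 members lie on 13 chromosomes, and 0 of them lie on X or Y. The arrays have no detection calls. Xist in wild type and Kdm5d, Eif2s3y and Uty in knockout tumours, transcripts of the other sex, had 12 log2 values from 4.31 to 5.74. Only Itgad and Itgb6, of the 35 members, stayed within that upper limit on all arrays. Markers of the granule lineage were present, with a mean log2 level over 10 genes of 10.67 to 10.96 in wild type and 10.48 to 10.60 in knockout tumours. These ranges did not overlap.

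No integrin or laminin gene passed the threshold. By limma with Benjamini-Hochberg adjustment over all genes, 0 of 35 members had an adjusted p under 0.05, against 0.207% of all genes. At an unadjusted p under 0.05 there were 10 members, or 28.6%, against 13.8% of all genes. Of these, 5 were higher in knockout tumours (7.24% of all genes) and 5 were lower (6.51% of all genes). Knockout and wild type arrays were fully separated in 12 members, or 34.3%, against 19.6% of all genes. In 6 of them the knockout arrays lay above the wild type arrays (10.2% of all genes) and in 6 below (9.43% of all genes). These counts describe the members, whose values are not independent of each other, and no test was made of the shares. Without knockout replicate 3 the number with an unadjusted p under 0.05 was 6, against 10.8% of all genes. A change is the knockout mean minus the wild type mean, in log2 units.

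Laminin genes lay mostly above 0 and integrin genes around it, a contrast that was not tested. Laminin genes had a median log2 change of 0.25, with 7 of 10 positive and a range from -0.45 to 0.68. Integrin genes had a median of 0.02, with 14 of 25 positive and a range from -0.66 to 0.58, and the median over all genes was 0.00. An unadjusted p under 0.05 was found for 4 of 10 laminins and 6 of 25 integrins, against 13.8% of all genes. All 6 of those integrins were among the 17 alpha chains, and 0 of the 8 beta chains reached it. In bulk tissue, fewer cells of a type and less RNA per cell cannot be told apart.

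**Figure D1:**
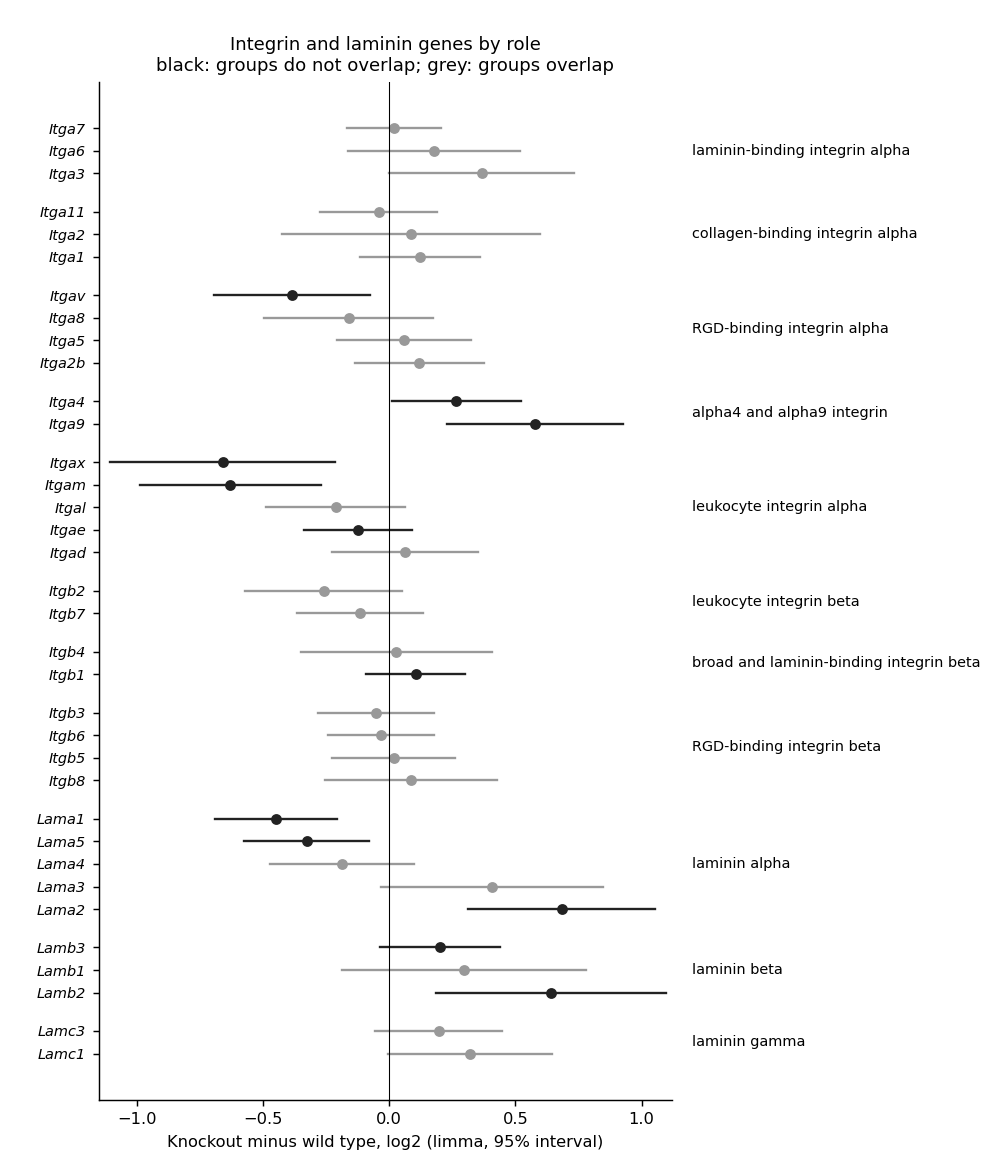
Log2 change (knockout minus wild type, horizontal axis) of each of the 35 integrin and laminin genes, grouped by role, with the 95% interval of limma as bars (3 arrays per group). Black marks the 12 genes whose groups do not overlap; the changes run from -0.66 (Itgax) to 0.68 (Lama2).

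Promoter windows were searched because Crebbp protein binds CREB, the factor of the cAMP response element. RefSeq windows (GRCm38.p6, 250 bases before to 50 after the start) were held for 22 of the 35 members, in 25 windows. The full element TGACGTCA, its own reverse complement, was in 0 of these 25 windows against 1.79% of all windows, and the GLI site GACCACCCA was in 0 against 0.253%, on either strand. The PU.1 letters GAGGAAGT were in 4 of the 25 windows, those of Itga11, Itgav, Itgb6 and Itgb7, against 3.20% of all windows. The shorter run TGACG, part of the full element and added after the values were seen, was in 5 of the 25 windows, those of Itga9, Itgb1, Itgb6, Lama5 and Lamb2, a share close to the 20.8% of all windows. A match describes letters only, and binding was not measured. The stretches below, 5′ to 3′ on the gene's strand and ending before the annotated start, show the letters in capitals for members picked because their groups did not overlap, TGACG in the first 3 and the PU.1 letters, on the opposite strand, in the last. They lie at chr9:118711517-118711581 (plus strand), chr8:128685603-128685653 (plus), chr2:180225874-180225938 (minus) and chr2:83724358-83724396 (plus).
Itga9: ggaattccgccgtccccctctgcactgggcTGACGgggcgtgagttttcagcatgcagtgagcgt
Itgb1: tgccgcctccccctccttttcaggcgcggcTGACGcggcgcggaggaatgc
Lama5: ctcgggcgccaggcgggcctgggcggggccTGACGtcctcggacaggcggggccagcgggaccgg
Itgav: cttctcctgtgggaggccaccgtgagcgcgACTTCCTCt

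The laminin alpha chains, which decide what receptors a laminin trimer binds, differed in opposite directions. Lama1 encodes the alpha chain of the early embryo and of the pial basement membrane. Its log2 level was 8.29, 8.54 and 8.32 in wild type replicates 1 to 3 and 8.01, 7.95 and 7.84 in knockout replicates 1 to 3. Every knockout array lay below every wild type array, for a log2 change of -0.45 (SE 0.10, limma adjusted p = 0.153), a level 1.36 times higher in wild type. This was the smallest p of the members. Lama2 encodes the chain of muscle and nerve basement membranes whose loss causes a congenital muscular dystrophy. It read 7.99, 8.21 and 8.30 in wild type and 9.19, 8.68 and 8.68 in knockout tumours. The knockout arrays were all higher, replicate 1 most so, for a log2 change of 0.68 (SE 0.16, adjusted p = 0.155), or 1.61-fold. Without knockout replicate 1 the change of Lama2 was 0.51, and over the other arrays left out in turn it reached 0.77.

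Lama5, the alpha chain of most adult epithelial and vascular basement membranes, followed Lama1. Its log2 level was 9.25, 8.97 and 9.08 in wild type and 8.81, 8.85 and 8.66 in knockout tumours. The groups did not overlap, and the log2 change was -0.33 (SE 0.11, limma adjusted p = 0.255). Lama3, an epithelial chain, read 6.49, 6.46 and 7.03 in wild type and 7.33, 6.80 and 7.07 in knockout tumours. Wild type replicate 3 lay above knockout replicate 2, so the groups overlapped, for a log2 change of 0.41 (SE 0.19, adjusted p = 0.397). For Lama4, the chain of vessel walls, the log2 levels were 7.82 ± 0.22 and 7.63 ± 0.06 (SD, n = 3 each), and the 95% interval of the change was -0.47 to 0.10. Its change of -0.19 became -0.31 when wild type replicate 2 was left out and -0.10 when replicate 3 was.

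The difference between alpha chains within an array is not moved by a shift common to all genes of that array. Lama2 minus Lama1 was -0.30, -0.33 and -0.02 in wild type and 1.18, 0.73 and 0.84 in knockout tumours on the log2 scale. The sign thus differed between the groups on every array, although levels of different features cannot be compared with each other and only the shift of 1.13 between the groups is meaningful. Lama2 minus Lama5 shifted by 1.01 and Lama2 minus Lamc1 by 0.36, both without overlap, and Lama1 minus Lamc1 shifted by -0.77, also without overlap. For Lama2 minus Lama1 and Lama2 minus Lama5 the separation was fixed in advance. On every knockout array Lama2 lay above, and Lama1 and Lama5 below, all wild type arrays, so these differences could not overlap. These pairs were chosen after the values were seen, so they are descriptions with no test.

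All 3 beta and both measured gamma chains of laminin had positive changes. Lamb2, a chain of synaptic and kidney basement membranes, read 7.78, 7.35 and 8.09 in wild type and 8.63, 8.32 and 8.19 in knockout tumours. The groups did not overlap, but the highest wild type array lay just under the lowest knockout array, for a log2 change of 0.64 (SE 0.20, limma adjusted p = 0.236). Leaving out arrays in turn gave changes of Lamb2 from 0.45 (without wild type replicate 2) to 0.82 (without wild type replicate 3).

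Lamb3, which forms an epithelial laminin with Lama3, read 6.38, 6.27 and 6.51 in wild type and 6.53, 6.53 and 6.70 in knockout tumours. These also did not overlap, but narrowly, and the change was 0.20 (SE 0.10). Lamb1, the widespread beta chain, had a larger but more variable change of 0.30 (SE 0.21), with levels of 8.02 ± 0.39 and 8.32 ± 0.26 (SD, n = 3 each). The change of Lamb1 became 0.08 when wild type replicate 2 was left out and 0.45 when replicate 3 was. Within arrays Lamb2 minus Lamb1 was -0.35, -0.24 and -0.24 in wild type and 0.08, 0.29 and -0.17 in knockout tumours, again without overlap.

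Lamc1, the gamma chain shared by most laminins, read 9.18, 9.13 and 9.40 in wild type and 9.83, 9.39 and 9.45 in knockout tumours. Knockout replicate 2 lay just below wild type replicate 3, and the log2 change was 0.32 (SE 0.14, limma adjusted p = 0.366), or 0.18 without knockout replicate 1. Lamc3 had levels of 6.75 ± 0.18 and 6.94 ± 0.02 (SD, n = 3 each) and a change of 0.20 (95% interval -0.06 to 0.45), or 0.11 without wild type replicate 1. Knockout replicate 1 gave the highest value of the 6 arrays for 5 of 10 laminins, and wild type replicate 2 the lowest for 6 of 10.

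**Figure D2:**
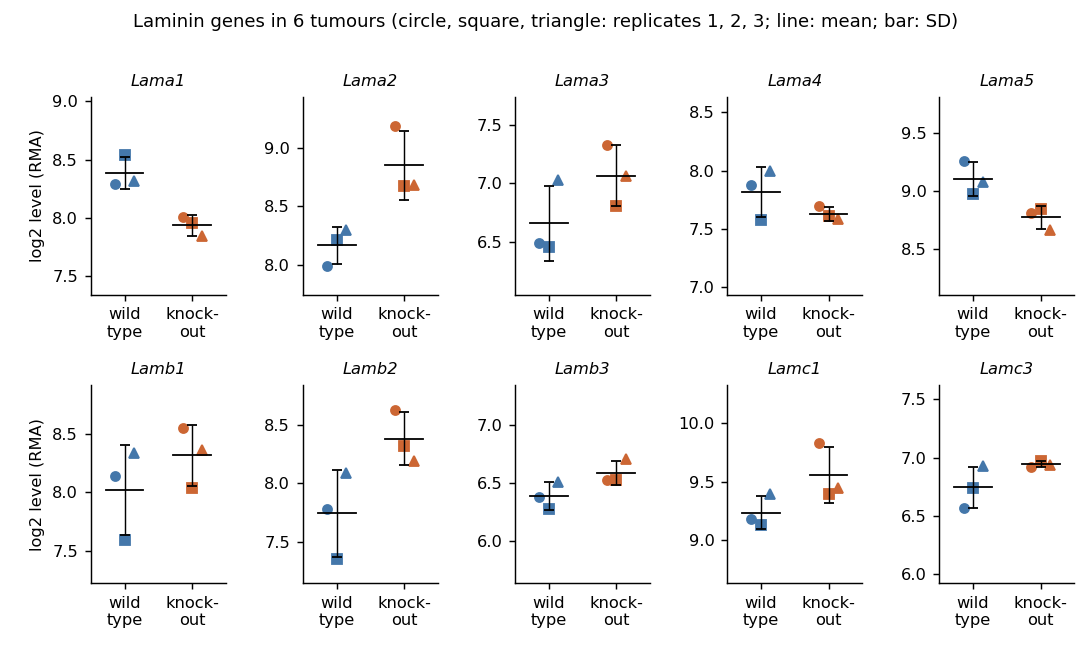
Log2 level (RMA, vertical axis, the same span in each panel) of the 10 laminin genes in 3 wild type (blue) and 3 knockout (orange) tumours; symbols mark replicates 1 to 3, the line the mean and the bar the SD. Lama1 and Lama5 lie lower, and Lama2, Lamb2 and Lamb3 higher, in every knockout tumour than in any wild type tumour.

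Mean marker levels of cell types that make laminin overlapped between the groups. Astrocyte and Bergmann glia markers had positive changes in 8 of 11 genes, with a median of 0.40. Groups without overlap were found in 0 of 11, against 19.6% of all genes. Their mean log2 level was 9.41, 9.38 and 10.13 in wild type and 10.17, 9.98 and 10.12 in knockout tumours, so wild type replicate 3 lay with the knockout arrays. Wild type replicate 3 also had the highest wild type value of 8 of the 10 laminins, all but Lama1 and Lama5. It lay below all knockout arrays for Lama2, Lamb2 and Lamb3, among the knockout arrays for Lama3, Lamb1, Lamc1 and Lamc3, and above them for Lama4. Endothelial markers had 8 of 12 positive, a median of 0.05 and mean levels of 7.28 to 7.49 in wild type and 7.32 to 7.58 in knockout tumours. Pericyte and smooth muscle markers had 5 of 9 positive, a median of 0.08 and mean levels of 7.89 to 7.93 and 7.83 to 8.06. For fibroblast and meningeal markers 6 of 9 were positive, with a median of 0.07 and mean levels of 7.57 to 8.29 in wild type and 7.69 to 7.91 in knockout tumours. Wild type replicate 3 was the highest wild type array for endothelial markers (7.49) and for fibroblast and meningeal markers (8.29). For pericyte and smooth muscle markers it was wild type replicate 1 (7.93). Among the fibroblast and meningeal markers the smallest p-values were those of Foxc1, Lum and Aldh1a2. Foxc1, a meningeal transcription factor, had a change of -0.45 (SE 0.14), and Lum, a collagen-binding proteoglycan, one of 0.56 (SE 0.21). Aldh1a2 encodes a retinoic acid enzyme of the meninges. Aldh1a2 had a change of -1.34 (SE 0.52), with wild type levels of 8.16, 7.57 and 9.95 and knockout levels from 7.11 to 7.35, so wild type replicate 3 stood apart. The part of glial, vascular and meningeal cells in the laminin values was not tested.

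Among integrins, the related alpha chains Itga9 and Itga4 had higher levels in every knockout tumour than in any wild type tumour, although neither passed the threshold. Itga9 encodes an alpha chain that pairs with beta1 and binds tenascin and VCAM1. Its log2 level was 9.01, 8.98 and 8.58 in wild type and 9.59, 9.50 and 9.22 in knockout tumours. Each knockout array lay above each wild type array, for a log2 change of 0.58 (SE 0.15, limma adjusted p = 0.184), or 1.49-fold. Itga4, its nearest relative, read 8.26, 7.91 and 8.12 in wild type and 8.41, 8.32 and 8.37 in knockout tumours. The groups again did not overlap, with a smaller change of 0.27 (SE 0.11, adjusted p = 0.342). Without wild type replicate 2 the change of Itga4 was 0.17.

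Itgav, the alpha chain of the receptors for RGD motifs in vitronectin, fibronectin and latent TGF-beta, was the other integrin outside the leukocyte group with an unadjusted p under 0.05 and no overlap. Its log2 level was 11.55, 11.84 and 11.36 in wild type and 11.11, 11.29 and 11.19 in knockout tumours. All knockout arrays were lower, for a log2 change of -0.39 (SE 0.13, limma adjusted p = 0.28). A dimmer feature assigned to Itgav, with a mean log2 level of 6.19, differed by only -0.06, and the mean of both features by -0.22. Without wild type replicate 2 the change was -0.26. The other RGD-binding alpha chains overlapped between the groups. Their changes were 0.06 for the fibronectin receptor chain Itga5, -0.16 for the nephronectin receptor chain Itga8 and 0.12 for the platelet chain Itga2b.

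The 8 beta chains had changes from -0.26 (Itgb2) to 0.11 (Itgb1), and no test compared them with the alpha chains. Itgb1, the common partner of most alpha chains, read 10.90, 10.90 and 11.02 in wild type and 11.05, 11.04 and 11.05 in knockout tumours. The groups did not overlap, yet the change was only 0.11 and its 95% interval ran from -0.09 to 0.30. The RGD-binding partners Itgb3, Itgb5, Itgb6 and Itgb8 had changes of -0.05, 0.02, -0.03 and 0.09, with 95% intervals that lay within -0.28 and 0.43. Set against Itgb1 on the same array, Itga9 differed by 0.47 and Itgav by -0.49, both without overlap, while Itga4 differed by 0.16 with overlap. The separation of Itgav minus Itgb1 was fixed in advance. On every knockout array Itgav lay below, and Itgb1 above, all wild type arrays. Against Itgb5 and Itgb8, Itgav differed by -0.40 and -0.47, and here the groups overlapped.

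In all 3 alpha chains grouped here as laminin-binding, Itga3, Itga6 and Itga7, the wild type and knockout arrays overlapped. Itga3 read 6.78, 6.60 and 6.76 in wild type and 7.32, 6.73 and 7.19 in knockout tumours. Knockout replicate 2 lay among the wild type arrays, and the log2 change was 0.37 (SE 0.16, limma adjusted p = 0.361), or 0.25 without knockout replicate 1. Itga6, a laminin receptor of neural progenitors, had levels of 8.09 ± 0.25 and 8.27 ± 0.17 (SD, n = 3 each) and a 95% interval from -0.16 to 0.52, with a change of 0.04 without wild type replicate 2. Itga7, a laminin receptor best known from muscle, varied little between arrays, 9.56 ± 0.02 and 9.58 ± 0.03 (SD, n = 3 each), and its 95% interval was -0.17 to 0.21. Itgb4, the laminin-binding partner of Itga6 in hemidesmosomes, had a change of 0.03 (95% interval -0.35 to 0.41).

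The collagen-binding chains Itga1, Itga2 and Itga11 had changes of 0.12, 0.09 and -0.04, all with overlap. Itga2 varied most among them, with levels of 6.51 ± 0.31 and 6.59 ± 0.39 (SD, n = 3 each). Itga1 and Itga2 are next to each other on chromosome 13. Itga10 was not analysed here.

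Of the leukocyte integrins, 4 of 5 alpha chains and both beta chains had negative changes, the alpha chains of complement receptors foremost. Itgam encodes CD11b, which with Itgb2 forms the complement receptor of microglia, macrophages and neutrophils. Its log2 level was 8.59, 8.04 and 8.36 in wild type and 7.77, 7.81 and 7.52 in knockout tumours. All knockout arrays lay below all wild type arrays, for a log2 change of -0.63 (SE 0.15, limma adjusted p = 0.175), a level 1.55 times higher in wild type. Itgax encodes CD11c, found on dendritic cells and on activated microglia. It read 7.35, 7.49 and 7.56 in wild type and 6.42, 7.23 and 6.76 in knockout tumours. There was no overlap, but the knockout tumours differed widely among themselves, and the change of -0.66 (SE 0.19, adjusted p = 0.221) became -0.87 without knockout replicate 2 and -0.47 without knockout replicate 1.

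Itgae, the chain of T cells that reside in epithelia, read 6.15, 6.08 and 6.29 in wild type and 6.02, 6.08 and 6.06 in knockout tumours. These just failed to overlap, and the change was -0.12 (95% interval -0.34 to 0.09). Itgb2, the common beta chain of leukocytes, read 8.77, 8.46 and 8.51 in wild type and 8.22, 8.55 and 8.19 in knockout tumours. Knockout replicate 2 lay above a pair of wild type arrays, and the change was -0.26 (SE 0.13, limma adjusted p = 0.446), or -0.16 without wild type replicate 1. Itgal, the alpha chain of the lymphocyte adhesion receptor LFA, and Itgb7, the beta chain of gut-homing lymphocytes, had changes of -0.21 (SE 0.12) and -0.11 (SE 0.11). Itgad had a change of 0.06 at the level of absent transcripts. Itgam, Itgax and Itgad follow one another on chromosome 7. Relative to Itgb2 on the same array, Itgam differed by -0.37 without overlap, Itgax by -0.40 with overlap, and Itgal differed by 0.05.

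**Figure D3:**
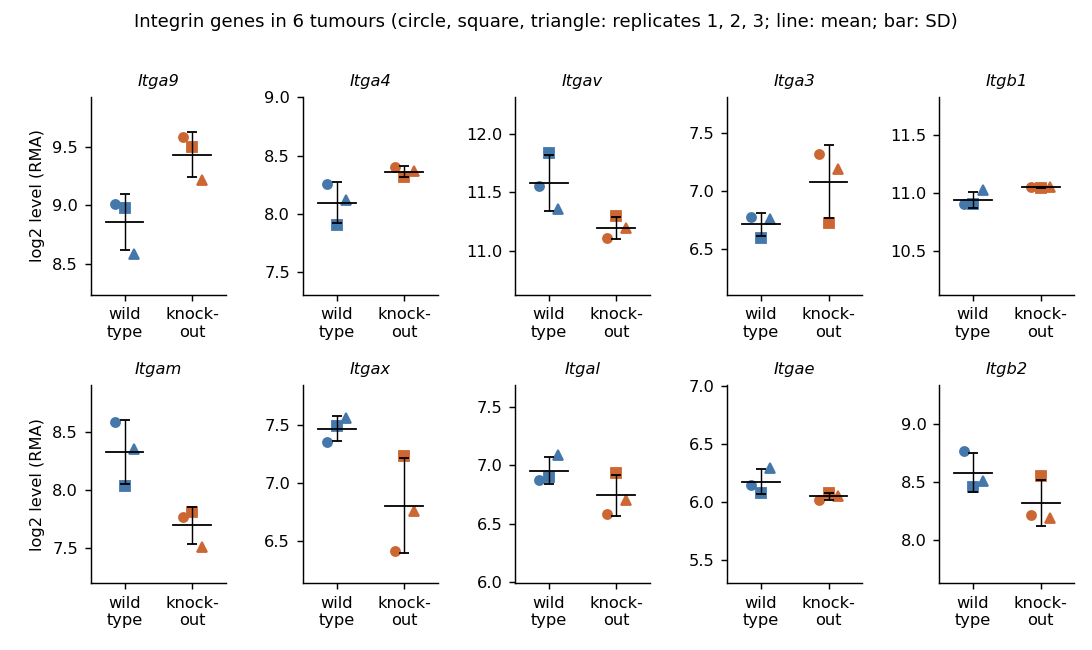
Log2 level (RMA, vertical axis, the same span in each panel) of 10 integrin genes in 3 wild type (blue) and 3 knockout (orange) tumours; symbols mark replicates 1 to 3, the line the mean and the bar the SD. Itgam and Itgax lie lower and Itga9 and Itga4 higher in every knockout tumour, while Itgb1 differs by only 0.11 and Itgb2 overlaps.

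Most markers of microglia and macrophages were also lower. Of 21 measured, 18 had negative changes, with a median of -0.26, and 9 had an unadjusted p under 0.05, all of them lower, which is 42.9% against 6.51% of all genes. Their mean log2 level ranged from 8.75 to 8.93 in wild type and from 8.50 to 8.78 in knockout tumours, so the ranges overlapped, and knockout replicate 2 was again the highest knockout array. Spi1, which encodes PU.1, the transcription factor that drives myeloid integrin genes, had a change of -0.54 (SE 0.15, limma adjusted p = 0.212). The protease gene Ctss and the complement genes C1qc and C1qa, those with the smallest p-values of the list, had changes of -0.57, -0.47 and -0.42. The microglia markers P2ry12, Tmem119, Trem2 and Tyrobp had changes of only -0.03, -0.06, -0.07 and -0.02, and the 3 positive changes were those of Fcrls (0.16), Cd68 (0.11) and Fcer1g (0.06). Lymphocyte markers had 7 of 9 negative and mean levels of 5.95 to 6.08 and 5.89 to 5.96, and 2 of the 9, Cd3g (5.00 and 5.13) and Ms4a1 (5.19 and 5.25), stayed at the level of absent transcripts on all arrays. The other lymphocyte markers reached above it, among them Cd3e (6.18 and 6.01), Cd79a (6.38 and 6.05) and Cd4 (7.25 and 6.95). For platelets, where Itga2b and Itgb3 are the main integrin, the 3 markers measured had mean levels of 6.07 to 6.16 and 6.10 to 6.20, of which Ppbp (5.01 and 5.23) lay at that level and Pf4 (5.91 and 5.82) and Gp9 (7.43 and 7.43) had means above it. The part of immune cell content in the integrin values was not tested.

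The genes that work with integrins and laminins gave the setting for these values. Basement membrane partners of laminin had 14 of 20 positive changes, a median of 0.10, and 3 higher and 2 lower at an unadjusted p under 0.05, where 7.24% of all genes were higher and 6.51% lower. The collagens Col4a1 and Col4a5 of the basement membrane network were higher by 0.63 (SE 0.14) and 0.66 (SE 0.16), the second being X-linked, and Smoc1, a matricellular protein, was lower with -0.65 (SE 0.13). Dystroglycan, its associated complex and the enzymes that add its laminin-binding sugar had 10 of 17 positive, a median of 0.11, and 6 higher (35.3%) and 1 lower (5.88%). The groups did not overlap in 8 of these 17 genes, or 47.1%, against 19.6% of all genes. Dtna, encoding dystrobrevin, read 9.29, 9.28 and 9.08 in wild type and 9.73, 9.56 and 9.77 in knockout tumours, a change of 0.47 (SE 0.10). Utrn, encoding utrophin, read 8.72, 8.70 and 8.66 against 9.05, 9.02 and 9.07, a change of 0.35 (SE 0.08). The mannosyltransferase gene Pomt1 was higher by 0.32 (SE 0.11), whereas Dmd, the X-linked dystrophin gene, was lower with -0.35 (SE 0.13). None of them passed over all genes (limma adjusted p = 0.148, 0.153, 0.262 and 0.296).

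Integrin ligands other than laminins had 16 of 27 negative changes and a median of -0.13. At an unadjusted p under 0.05, 2 were higher and 2 lower, each 7.41% of the list. These shares lay near those of all genes, 7.24% higher and 6.51% lower. Vcam1, the ligand of Itga4 and Itga9 chains, read 9.65, 9.70 and 9.97 in wild type and 8.90, 9.22 and 8.80 in knockout tumours. All knockout arrays were lower, with a change of -0.80 (SE 0.14, limma adjusted p = 0.0948), the opposite direction to both receptors. The RGD proteins Mfge8 and Edil3, ligands of Itgav receptors, differed in opposite directions, by 0.57 (SE 0.16) and -0.60 (SE 0.18).

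Integrin activators and adhesion adaptors had 23 of 33 negative changes and a median of -0.12. At an unadjusted p under 0.05, 7 were lower (21.2%, against 6.51% of all genes). Another 2 were higher (6.06%, against 7.24% of all genes). Fermt1, a kindlin that activates integrins through their beta tails, read 6.02, 6.39 and 6.16 in wild type and 5.00, 5.42 and 5.26 in knockout tumours. Its change of -0.96 (SE 0.14, limma adjusted p = 0.0583) had the smallest p of all 5 partner lists, and its knockout values lay at the level of absent transcripts. Apbb1ip, the Rap1 effector that recruits talin, and Bcar1, an adaptor of focal adhesions, had changes of -0.52 (SE 0.10) and -0.57 (SE 0.12). Tetraspanin partners had a median of 0.00, and Cd151, the tetraspanin of laminin-binding integrins, was higher by 0.41 (SE 0.14, adjusted p = 0.282). Cd53 and Cd9 had changes of -0.32 and -0.26. No gene of the 5 lists passed over all genes.

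**Figure D4:**
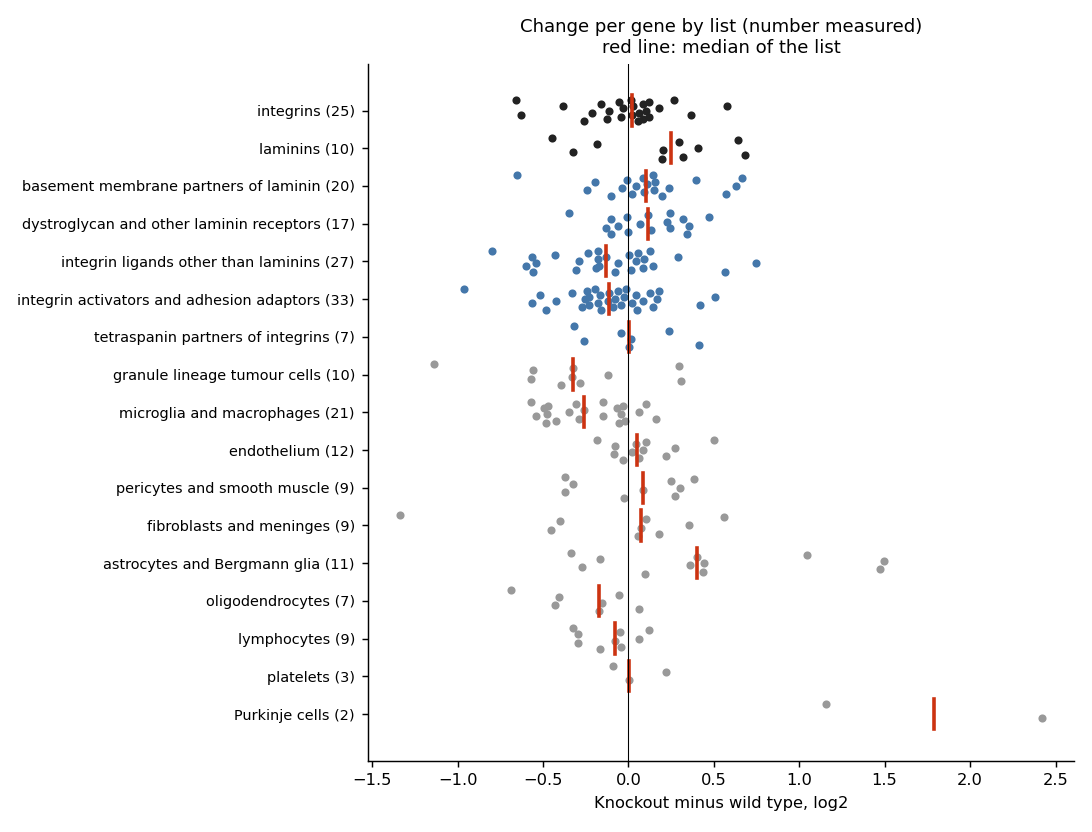
Log2 change (knockout minus wild type, horizontal axis) of each gene in the integrins and laminins (black), 5 lists of partner genes (blue) and markers of 10 cell types (grey), with the number measured in parentheses and the median as a red line. Laminins have a median of 0.25 and integrins one of 0.02, while microglia and macrophage markers have a median of -0.26 and astrocyte and Bergmann glia markers one of 0.40.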

How the data were processed

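RNA of 6 tumours was measured on Affymetrix whole-transcript arrays, and samples were grouped by their titles. The deposited values are on the log2 scale. Per the submitters' processing notes the authors used RMA and oligo, whose versions these sources do not give. RMA equalises the distributions of arrays, which hides a shift common to most genes, and it compresses changes of dim genes. The table held 41345 features, of which 23521 had 1 gene symbol, 1814 several and 16010 none. Of those with 1 symbol 99.2% matched a RefSeq gene (GRCm38.p6), which gave chromosomes and gene order. The feature with the highest mean was used for each of 22180 genes.

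The log2 values were fitted in R 4.3.3 by limma 3.58.1 (lmFit, then eBayes without trend). P-values are two-sided, adjusted by Benjamini-Hochberg across the 22180 genes, and judged at 0.05. The fit was tested on simulated data. Intervals are limma's 95% intervals. The number of arrays limits the precision. Same-numbered arrays of the groups were not treated as pairs, since their deviations correlated by -0.03, 0.05 and 0.10. The members and lists were chosen with earlier results of these data known. Values per array are given for members whose groups do not overlap and for the 12 with the smallest p, and partner lists are named by their 3 smallest p, other genes having been chosen after their values were seen. Alternatives covered scaling, dim genes, the variance model, array weights, several features, a replicate block, the threshold, sex-linked genes and leaving out each array.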

Additional observations from a re-analysis of the deposited data

How the results depend on the processing

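In 18 alternative settings 0 members passed the threshold, and the lowest adjusted p was 0.0618 (limma, Itgax without knockout replicate 2). The sign was kept in all settings by 26 of the 35 members. With each array centred on its median, which moved the median of all genes to -0.025, Itga7 and Itgb5 turned to -0.0094 and -0.011. Leaving out 1 array at a time gave ranges that crossed 0 for Itgb8 (-0.020 to 0.23), Itga2 (-0.047 to 0.31), Itgb4 (-0.13 to 0.14), Itga5 (-0.013 to 0.14), Itga11 (-0.11 to 0.024), Itgb3 (-0.12 to 0.015), Itgad (-0.017 to 0.18) and Itgb5 (-0.043 to 0.11). When arrays were left out, the count of members with an unadjusted p under 0.05 ranged from 6 to 13. The count was 6 without knockout replicate 3, against 10.8% of all genes. It was 13 without knockout replicate 2, against 12.4% of all genes. The count without overlap ranged from 12 to 18. Groups separate more easily with 1 array fewer, and the share over all genes is not given for these settings. The median of integrins was 0.087 without the dimmest 50% of genes, which left 18 members. Crebbp passed in that setting (log2 change -0.50, adjusted p = 0.0486), with trend (-0.50, adjusted p = 0.0263) and at a threshold of 0.1 (-0.50). Over all genes 46 passed in the fit as reported, 77 without the dimmest 25%, 107 with trend, 131 at a threshold of 0.1, 11 with all features in the adjustment, 12 with a replicate block, and 4 to 128 when arrays were left out. The replicate block gave 12 members with an unadjusted p under 0.05 against 10, where 13.9% of all genes had such a p. Not every array correlated best with its own number. Apart from fewer genes or arrays in a setting, the cause of these differences was not tested.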

Other observations

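Markers of the tumour lineage and of oligodendrocytes gave further background values for the integrin and laminin genes. Granule lineage markers had 8 of 10 negative changes, with a median log2 change of -0.33, and oligodendrocyte markers 6 of 7, with a median of -0.17. The Purkinje cell markers Calb1 and Car8, the 2 measured of that list, had changes of 2.42 (SE 0.80) and 1.16 (SE 0.43), and both overlapped between the groups.

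Over the 35 members, knockout replicate 1 gave the highest of the 6 values for 12 genes and wild type replicate 3 for 9. Wild type replicate 2 gave the lowest for 10 and wild type replicate 1 for 9. Among the 25 integrins wild type replicate 3 was the highest array for 8.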
